A study of Mus musculus with 32 samples.

Results

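The TAM family comprises the receptor tyrosine kinases Tyro3, Axl and Mertk, whose bridging ligands are Gas6 and protein S (encoded by *Pros1*). These 5 genes were selected by symbol, after matching of Ensembl identifiers to gene symbols. No level or p-value was used as a filter, but the choice was made with earlier results of these data known. They were 5 of the 74021 genes in the table of LAG-3-sorted microglia and in the table of spinal cord, and 5 of the 74016 genes in the table of microglia by disease stage. After the filter on low counts, 4 of the 5 members were tested in both microglia tables and all 5 in spinal cord, the missing one being *Tyro3*.

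TAM ligands are vitamin K-dependent proteins that hold phosphatidylserine on the surface of a dying cell at one end and a TAM receptor on a phagocyte at the other. Receptor engagement drives engulfment of the dying cell and, through the type I interferon receptor, induces SOCS proteins that restrain cytokine signaling. Mertk serves steady-state clearance in many tissue macrophages, including microglia, whereas Axl is low in resting microglia and rises in reactive ones. Tyro3 is chiefly a receptor of neurons in the central nervous system. Gas6 binds all the TAM receptors, and protein S binds Tyro3 and Mertk.

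The study examined the inhibitory receptor LAG-3 in SOD1G93A mice, a model of amyotrophic lateral sclerosis, in 32 RNA-seq libraries of 9 groups. CD11b+/CD45int microglia of the lumbar cord were sorted at P140 from SOD1G93A animals into LAG-3-low (n = 5) and LAG-3-high (n = 5) fractions, with microglia of non-transgenic littermates as WT (n = 4), whose age is not given in the sample labels. In a second experiment, microglia came from SOD1G93A mice that were either LAG-3+/+ or LAG-3-/-, at P120 and at P140 (n = 3 for each of the 4 groups). Whole lumbar spinal cord came from P140 mice of the same 2 genotypes (n = 3 each). Every group except WT carried the human mutant SOD1 transgene, so the LAG-3+/+ controls had the disease too. *Lag3* was disrupted in the germline, thus in T cells and neurons as well as in microglia. The transgene was that of the 1Gur line on a B6 background and the *Lag3* disruption was the tm1Doi allele. Replicates are separate libraries of a group, and where the labels do not state that they came from separate mice the p-values measure the spread between these libraries, part of which may be technical.

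Library totals ranged from 9403286 to 22850356 counts in LAG-3-sorted microglia, from 23981240 to 49512341 in microglia by stage and from 19429873 to 26994340 in spinal cord. *Lag3* followed the labels of the sort and of the deletion, with mean levels in CPM, counts relative to the scaled library total, of 4.61 in WT microglia, 43.5 in the LAG-3-low and 169 in the LAG-3-high fraction, at most 0.46 CPM in LAG-3-/- microglia and 5.61 against 59.8 CPM in LAG-3-/- and LAG-3+/+ cord. In LAG-3+/+ stage microglia, mean *Lag3* was 59.3 CPM at P120 and 26.1 CPM at P140, without overlap. That change was not called (log2 fold change -1.19, edgeR adjusted p = 0.136). In whole lumbar cord, another sample type, the study reported a marked rise of LAG-3 mRNA by P140. The highest P140 LAG-3+/+ level, 28.1 CPM, was below the lowest LAG-3-low level, 34.8 CPM, which was not tested. Some libraries stood apart from the rest. WT replicates 1 and 4 had 2.99% and 3.60% mitochondrial counts, against 0.84% and 1.46% in WT replicates 2 and 3. The 3 P140 LAG-3+/+ libraries and P140 LAG-3-/- replicate 1 had 18896 to 20489 detected genes, against 23459 to 24942 in the other 8 stage libraries. Of the 10 markers on a neutrophil list, which a CD45int gate should largely leave out, the summed level was 22825 to 66376 CPM in LAG-3-low, 3.48 to 9.67 CPM in LAG-3-high and 5972 to 70511 CPM in WT libraries. The 9 matched microglial markers summed to 16799 to 45766 CPM in all 26 microglia libraries, which shows microglial RNA in each but not its purity. In WT replicate 4 the neutrophil sum was above the microglial one (70511 against 31751 CPM). The same held in LAG-3-low replicates 1 to 4, with 66376 against 20705 CPM in replicate 3. Levels below are those of the sorted libraries, whatever cells contributed to them.

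*Axl*, on the minus strand of chromosome 7 (ENSMUSG00000002602, GRCm39 chr7:25456535-25488329), was the TAM gene that varied most among the sorted microglia. In WT microglia its levels were 8.87, 62.0, 73.3 and 0.698 CPM in replicates 1 to 4. In LAG-3-low microglia they were 1064, 852, 944, 748 and 948 CPM. In LAG-3-high microglia they were 2695, 2267, 2406, 2315 and 2152 CPM. The 3 groups did not overlap, and every LAG-3-high library was above every LAG-3-low library, which were in turn above every WT library. The low WT values were those of replicates 1 and 4, the latter resting on 11 counts. Group means were 36.2 ± 36.7 (SD, n = 4), 911 ± 118 (n = 5) and 2367 ± 205 CPM (n = 5).

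The 3 pairwise comparisons of these groups share libraries and are given side by side. A call required both an adjusted p below 0.1 and a change beyond 1 on the log2 scale in either direction. Against WT microglia, *Axl* rose by 4.65 on the log2 scale in LAG-3-low microglia (edgeR quasi-likelihood test, Benjamini-Hochberg adjusted p = 0.00352) and by 6.03 in the LAG-3-high fraction (adjusted p = 0.000576). It was the 1 member called in each of these comparisons. In the LAG-3-low against WT comparison the calls over all 16508 genes came to 10.9% higher and 11% lower, and in LAG-3-high against WT to 12.1% higher and 14.9% lower. Levels in every library above those of every WT library were found for 9.78% of genes in LAG-3-low and for 12.4% in LAG-3-high microglia. Across the alternatives, the rise of *Axl* in LAG-3-high over WT ranged from 5.17 to 6.65 and remained called in all of them. Markers of cell types moved with these comparisons: 6 of 9 microglial markers were called lower in each fraction, 9 of 10 neutrophil markers lower in LAG-3-high, and 4 of 10 neutrophil and 2 of 5 monocyte markers higher in LAG-3-low. Their part in the rise was not tested.

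Between the LAG-3 fractions, *Axl* was 2.60-fold higher in LAG-3-high (log2 fold change 1.38, SE 0.69, 95% interval -0.10 to 2.85, edgeR adjusted p = 0.470), a difference that was not called in the fit of all 3 groups. No member was called in it, 1 had an unadjusted p under 0.05, and DESeq2 also called 0. In this comparison 0.818% of genes were called higher and 2.67% lower (135 and 441 genes), and without TMM scaling, which moved the median of all genes to -0.40, the split was 35 higher and 633 lower. Corrected for transcript length and GC content, it was 272 higher and 433 lower. This correction also rescales each library, so its results, here and below, mix that rescaling with the effect of length and GC content. Whether *Axl* was called depended on the WT libraries in the fit. Fitted without them, *Axl* was 1.30 higher (adjusted p = 3.87e-06), a call in a fit that called 2.23% of genes higher. With WT replicates 1 and 4 left out, a setting chosen after the data were seen, it was 1.34 higher (adjusted p = 6.07e-06), where 1.77% of genes were called higher. Without WT replicate 4 alone it was 1.38 higher (adjusted p = 0.0504). The exact two-sided permutation test of the 5 against 5 *Axl* levels gave p = 0.00794, the smallest it allows, and 8.95% of all genes had every LAG-3-high library above every LAG-3-low library. This test, like the other unpaired tests between the fractions, treats the libraries as independent. The study's methods describe separating microglia of P140 SOD1G93A mice into both fractions, so the fractions may share animals. Neutrophil transcripts moved with this comparison, since 10 of 10 neutrophil markers were called lower in LAG-3-high microglia, and the monocyte markers summed to 393 to 990 CPM in LAG-3-high against 1660 to 5144 CPM in LAG-3-low libraries. Their part in the difference was not tested. As these are bulk libraries, fewer cells of a type and less RNA per cell cannot be told apart in any comparison here.

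*Mertk*, on the plus strand of chromosome 2 (ENSMUSG00000014361, chr2:128540729-128645080), did not follow *Axl* in sorted microglia. Its levels were 387, 340, 600 and 168 CPM in the WT libraries. They were 223, 214, 237, 193 and 318 CPM in LAG-3-low and 413, 323, 341, 322 and 388 CPM in LAG-3-high microglia. The LAG-3-high libraries were all above the LAG-3-low libraries, whose highest value was 318 CPM, and the WT range enclosed both fractions. The LAG-3-high fraction exceeded the LAG-3-low one by 0.59 on the log2 scale (SE 0.26, edgeR adjusted p = 0.362), and an exact permutation test of the levels gave p = 0.00794. Such a separation of the fractions, with LAG-3-high above, was found for 8.95% of all genes. Against WT the edgeR log2 fold changes were -0.66 for LAG-3-low (adjusted p = 0.115) and -0.07 for LAG-3-high (adjusted p = 0.895). With transcript length and GC content corrected for, *Mertk* was called lower in LAG-3-low against WT (log2 fold change -1.62, edgeR adjusted p = 0.000416), in a fit that called 27.8% of genes lower and moved the median of all genes to -0.71. That correction changed the split of all genes from 1793 higher and 1821 lower to 1299 higher and 4591 lower, and in LAG-3-high against WT from 2000 and 2464 to 1370 and 4424. Without TMM the LAG-3-high against WT split was 1488 higher and 3234 lower.

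**Figure D1:**
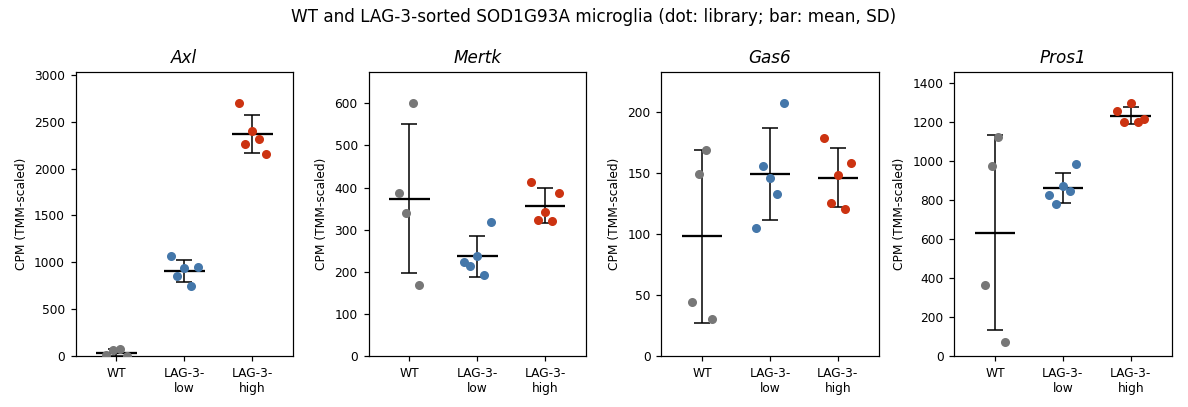
Levels in CPM of the 4 TAM genes tested in LAG-3-sorted microglia, with 1 point per library and the group mean and SD, for WT (n = 4), LAG-3-low (n = 5) and LAG-3-high (n = 5). *Axl* separates all 3 groups, whereas the WT libraries of *Mertk*, at 168 to 600 CPM, span both LAG-3 fractions.

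The ratio of *Axl* to *Mertk* within a library does not depend on the scaling of that library, apart from the pseudocount. The mean log2 ratio was -4.69 ± 2.47 (SD, n = 4) in WT, 1.96 ± 0.24 (n = 5) in LAG-3-low and 2.73 ± 0.15 (n = 5) in LAG-3-high microglia. The LAG-3-high fraction exceeded the LAG-3-low fraction by 0.78, with no overlap between the libraries (exact permutation p = 0.00794, the smallest possible, adjusted over the 8 comparisons of this ratio 0.0212). The differences from WT were 7.43 for LAG-3-high and 6.65 for LAG-3-low, with the same exact p. Levels of different genes were set side by side only per kb of the longest annotated transcript, which is 4645 bases for *Axl*, 4709 for *Mertk*, 4613 for *Tyro3*, 3770 for *Gas6* and 3706 for *Pros1*. On that scale *Axl* made up 7.33% ± 7.20 of the TAM receptor level in WT microglia, 79.6% ± 2.80 in the LAG-3-low and 87.0% ± 1.26 in the LAG-3-high fraction. Divided by the length of all annotated exons instead, the shares were 4.04%, 66.9% and 77.6%. *Mertk* was the main TAM receptor transcript of the WT microglia libraries and *Axl* that of the libraries of both SOD1G93A fractions on either length scale.

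**Figure D2:**
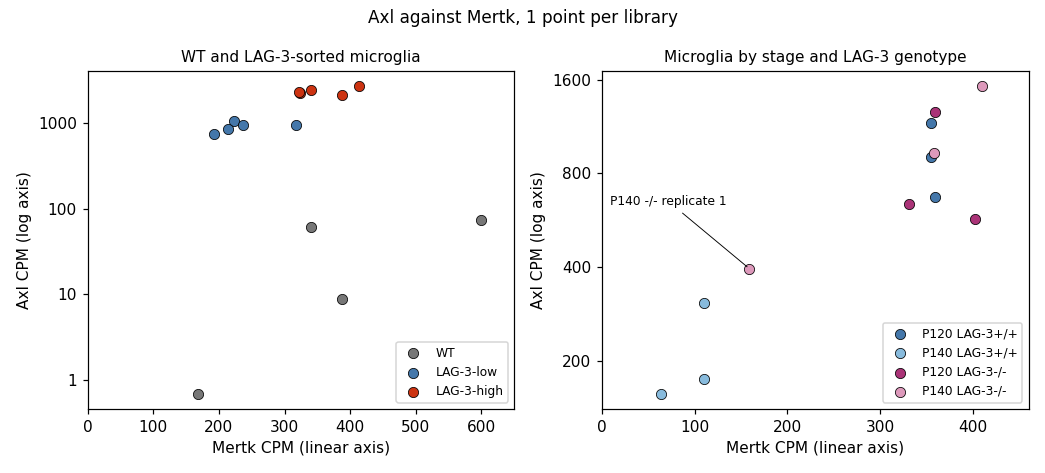
*Axl* against *Mertk* in each microglia library, in CPM, with *Axl* on a log axis and *Mertk* on a linear axis, for the LAG-3-sorted libraries (left) and the stage libraries (right). The sorted groups all separate along *Axl*, whereas along *Mertk* the LAG-3 fractions separate from each other but not from WT. The P140 LAG-3+/+ libraries lie low on both axes, together with P140 LAG-3-/- replicate 1.

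*Tyro3*, on the plus strand of chromosome 2 (ENSMUSG00000027298, chr2:119628214-119648738), had 0 counts in each of the 26 microglia libraries, which hold 656144158 counts together. A count of 0 allows a level of up to 0.261 CPM in the library where 3 counts weigh most, a limit that covers counting error only. The spinal cord libraries, in contrast, held 74.2 to 95.7 CPM. Of the 3987 genes with a mean spinal cord level between 42.6 and 170 CPM, 52 (1.30%) had no count in any microglia library, *Tyro3* among them. The study's methods give different kits for cord and microglia, while the sample labels give the same kit for both, and the levels were not tested across tables.

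In microglia by stage, *Axl* and *Mertk* fell together between P120 and P140 in SOD1G93A/LAG-3+/+ mice. At P120 the *Axl* levels were 1159, 904 and 673 CPM, and at P140 they were 308, 175 and 157 CPM. *Mertk* had 355, 355 and 359 CPM at P120 and 110, 110 and 63.9 CPM at P140. For both receptors every P140 library was below every P120 library. *Axl* was 4.27-fold lower (log2 fold change -2.09, edgeR adjusted p = 0.0147) and *Mertk* 3.76-fold lower (log2 fold change -1.91, edgeR adjusted p = 0.00603). With no minimum fold change in this table, 2 of the 4 members tested were called, both lower, where the calls over all 18669 genes came to 11.9% higher and 15.5% lower. Every P140 library was below every P120 library for 25.4% of genes. The exact permutation test of 3 against 3 libraries cannot go below p = 0.1, which both receptors reached. The LAG-3-sorted fractions also came from P140 SOD1G93A mice, but no library of either fraction was as low. *Axl* was at least 748 CPM in LAG-3-low and 2152 CPM in LAG-3-high libraries, and *Mertk* at least 193 and 322 CPM. The sorted and stage tables were normalized separately, and this difference was not tested.

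The P140 LAG-3+/+ libraries also differed in quality measures from the others. Deviations of log2 level from a gene's mean over all stage libraries were correlated with transcript length across genes. The correlation was -0.15 to -0.08 in the P140 LAG-3+/+ libraries, -0.08 in P140 LAG-3-/- replicate 1 and 0.06 to 0.12 in the other 8 stage libraries. Such deviations balance out over a table, so opposite signs are in part built in. The microglial markers summed to 37827 to 45766 CPM in the P140 LAG-3+/+ libraries against 27533 to 31073 CPM at P120. Border macrophage markers summed to 111 to 143 CPM in them against 2.53 to 18.5 CPM at P120, with 1 of the 5 tested called higher. The part of these cells was not tested. With transcript length and GC content corrected for, the falls were -1.24 for *Axl* (edgeR adjusted p = 0.0525) and -1.10 for *Mertk* (edgeR adjusted p = 0.0209), and both stayed called in every alternative. The direction of all genes moved with scaling. Without TMM, which put the median of all genes at -0.70 against -0.22 with it, 971 genes were called higher and 4120 lower, against 2219 and 2899 with TMM, and after the length and GC correction, with a median of 0.37, 3771 were called higher and 1302 lower.

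No such fall was measured in SOD1G93A/LAG-3-/- mice. *Axl* had 636, 1255 and 571 CPM at P120 and 396, 1524 and 932 CPM at P140. *Mertk* had 331, 359 and 402 CPM at P120 and 159, 409 and 358 CPM at P140. The ages overlapped for both receptors, and P140 replicate 1, which stood apart in its detected genes, was the lowest library of each. Log2 fold changes were 0.21 for *Axl* (edgeR adjusted p = 0.964) and -0.24 for *Mertk* (edgeR adjusted p = 0.914). No member was called, 0 had an unadjusted p under 0.05 and DESeq2 called 0 of them, while edgeR called 0% of all genes higher and 0% lower and DESeq2 called 464 genes.

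**Figure D3:**
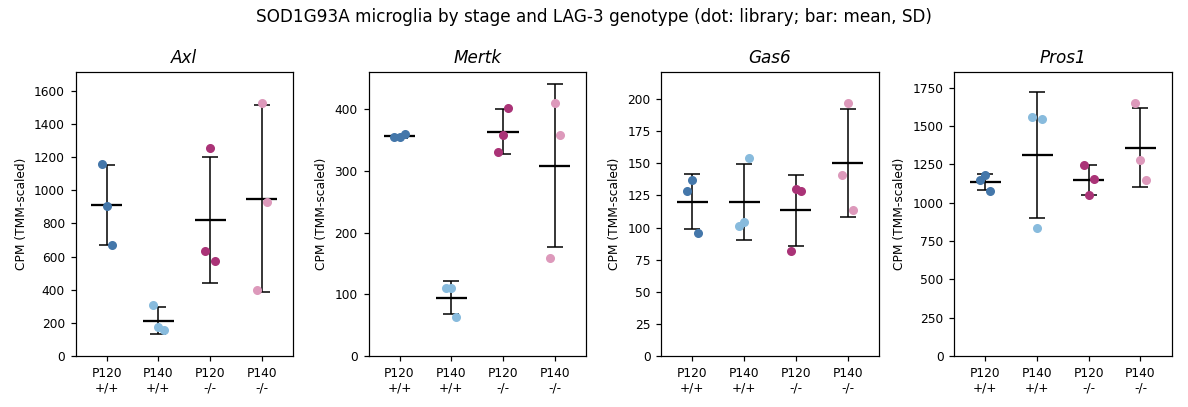
Levels in CPM of the 4 TAM genes tested in microglia by stage, with 1 point per library and the group mean and SD (n = 3), for LAG-3+/+ and LAG-3-/- SOD1G93A mice at P120 and at P140. The 3 P140 LAG-3+/+ libraries are below all P120 LAG-3+/+ libraries for *Axl* and *Mertk* but not for *Gas6* and *Pros1*.

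At P120 the genotypes did not separate in *Axl* or *Mertk*. Mean *Axl* was 821 ± 378 CPM in LAG-3-/- against 912 ± 243 CPM in LAG-3+/+ microglia (log2 fold change -0.15) and mean *Mertk* was 364 ± 35.9 against 356 ± 2.77 CPM (log2 fold change 0.03), each with an edgeR adjusted p of 1. None of the 4 members tested was called, 0 had an unadjusted p under 0.05 and DESeq2 called 0, with 0% of all genes called higher and 0.0107% lower by edgeR. The neutrophil markers did separate, summing to 2.68 to 6.58 CPM in LAG-3-/- against 1743 to 2576 CPM in LAG-3+/+ libraries, with 0 of 10 called. The part of these cells was not tested at this age either.

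At P140 both receptors rose in LAG-3-/- relative to LAG-3+/+ microglia. *Axl* was 4.45-fold higher, at 950 ± 565 against 214 ± 82.3 CPM (log2 fold change 2.15, edgeR adjusted p = 0.0406), and *Mertk* was 3.26-fold higher, at 309 ± 132 against 94.6 ± 26.7 CPM (log2 fold change 1.71, edgeR adjusted p = 0.0293). All 3 LAG-3-/- libraries were above all 3 LAG-3+/+ libraries, although *Axl* in LAG-3-/- replicate 1, at 396 CPM, was close to the highest LAG-3+/+ library, at 308 CPM. The 2 calls of 4 members stand beside 7.22% of all genes called higher and 3% called lower, and 12.2% of genes had every LAG-3-/- library above every LAG-3+/+ library. The comparison rests on the same P140 LAG-3+/+ libraries as the fall with age, which were lower in both receptors than the sorted P140 fractions. Both calls were lost when the fit held only these 2 groups (edgeR adjusted p = 0.212 for each). Without LAG-3-/- replicate 2 the log2 fold changes were 1.58 for *Axl* (adjusted p = 0.170) and 1.40 for *Mertk* (adjusted p = 0.124), and without LAG-3-/- replicate 3 they were 2.17 (adjusted p = 0.129) and 1.59 (adjusted p = 0.110). Without LAG-3+/+ replicates 2 and 3 in turn, *Axl* alone lost its call, at 2.03 (adjusted p = 0.123) and 1.98 (adjusted p = 0.115). The length and GC correction alone kept both calls, at 1.43 for *Axl* (adjusted p = 0.0853) and 1.03 for *Mertk* (adjusted p = 0.0818), and together with a replicate block lost both (adjusted p = 0.121 for each). The correction alone, with the rescaling of libraries that it includes, turned the split of all genes from 1347 higher and 561 lower to 510 higher and 1117 lower. RLE size factors gave 1275 and 837, and library totals without TMM, with a median of all genes of 0.47, gave 2048 and 243. Of the markers, 2 of 5 monocyte and 2 of 9 microglial ones were called higher in LAG-3-/- microglia, and the monocyte sum was 66.1 to 739 CPM against 34.7 to 258 CPM. The microglial list as a whole went the other way, with a median log2 fold change of -0.35. Its mean sum was 32091 ± 8763 CPM in LAG-3-/- against 41086 ± 4156 CPM in LAG-3+/+ libraries. The neutrophil sum varied widely within both genotypes, at 4.02 to 4616 CPM against 3.84 to 3482 CPM. Their part was not tested.

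The difference between the genotypes in their change with age is tested by the genotype-by-stage interaction. It was 2.31 for *Axl* (edgeR adjusted p = 0.213) and 1.68 for *Mertk* (edgeR adjusted p = 0.185) on the log2 scale and was not called for either, with 0.161% of all genes called higher and 0.0107% lower. Both had an unadjusted p under 0.05 in edgeR. DESeq2 called both, at 2.21 (adjusted p = 0.0503) and 1.56 (adjusted p = 0.0466), in a fit that called 4.99% of genes higher. Without P140 LAG-3-/- replicate 1 edgeR called both, at 2.68 for *Axl* (adjusted p = 0.0299) and 1.99 for *Mertk* (adjusted p = 0.00739). The *Axl* to *Mertk* ratio had mean log2 values of 1.32, 1.15, 1.09 and 1.53 in P120 LAG-3+/+, P140 LAG-3+/+, P120 LAG-3-/- and P140 LAG-3-/- microglia, and the libraries overlapped in each of the 4 comparisons. The 4 exact permutation tests of it, which with 3 against 3 libraries cannot go below p = 0.1, gave p = 0.4 to 0.8 and so say little on whether it changed. Per kb of the longest transcript *Axl* was 71.5%, 69.0%, 67.7% and 74.4% of the TAM receptor level in the same order, and per kb of all annotated exons 56.6%, 53.8%, 52.5% and 60.1%.

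*Gas6*, on the minus strand of chromosome 8 (ENSMUSG00000031451, chr8:13515371-13544824), was the less abundant ligand transcript of the microglia libraries. In sorted microglia it had 43.9, 149, 169 and 30.6 CPM in WT, 105, 155, 146, 132 and 207 CPM in LAG-3-low and 178, 125, 148, 120 and 158 CPM in LAG-3-high libraries. The fractions overlapped, the change being -0.03 on the log2 scale (edgeR adjusted p = 0.998). WT replicates 1 and 4 were again the low libraries. In microglia by stage *Gas6* ranged from 81.4 to 197 CPM over all 12 libraries, and the log2 fold changes lay between -0.08 for genotype at P120 and 0.41 for age in LAG-3-/- microglia, without a call. Its difference between genotypes at P140 was 0.33 (edgeR adjusted p = 0.509).

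*Pros1*, on the plus strand of chromosome 16 (ENSMUSG00000022912, chr16:62674275-62749710), was the main TAM ligand transcript of the microglia libraries. It had 362, 976, 1124 and 70.6 CPM in WT, 827, 780, 871, 846 and 985 CPM in LAG-3-low and 1258, 1199, 1297, 1203 and 1216 CPM in LAG-3-high libraries. LAG-3-high microglia were above both other groups in every library, while the WT libraries spread on both sides of LAG-3-low. Over all genes, 8.95% had every LAG-3-high library above every LAG-3-low library, and 12.4% had every LAG-3-high library above every WT library. The difference between the fractions was 0.52 on the log2 scale (edgeR adjusted p = 0.806, exact permutation p = 0.00794) and that of LAG-3-high from WT 0.96 (edgeR adjusted p = 0.184, exact permutation p = 0.00794). The difference from WT depended on the WT libraries, as it was 1.41 and called without WT replicate 3 (edgeR adjusted p = 0.0697), 0.60 without replicate 4 (adjusted p = 0.126) and 0.28, under the minimum fold, without replicates 1 and 4 (adjusted p = 0.0579). In microglia by stage *Pros1* had 1148, 1180 and 1075 CPM at P120 and 1556, 834 and 1543 CPM at P140 in LAG-3+/+, and 1244, 1049 and 1153 CPM at P120 and 1647, 1281 and 1151 CPM at P140 in LAG-3-/- mice. The groups overlapped. Its log2 fold changes were 0.21 and 0.24 with age and 0.05 between genotypes at P140 (edgeR adjusted p = 0.927).

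Per kb of the longest transcript, *Pros1* was 83.4% of the ligand level in WT microglia (70.1% in replicate 4), 85.6% in LAG-3-low and 89.6% in LAG-3-high libraries, and 90.1% to 91.4% over the stage groups. The log2 ratio of *Gas6* to *Pros1* within a library was 0.53 lower in the LAG-3-high than in the LAG-3-low fraction (difference -0.53, exact permutation p = 0.0238) and 0.67 lower than in WT (difference -0.67, exact permutation p = 0.0397). Neither held after adjustment over the 8 comparisons of this ratio, where both adjusted p were 0.159.

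**Figure D4:**
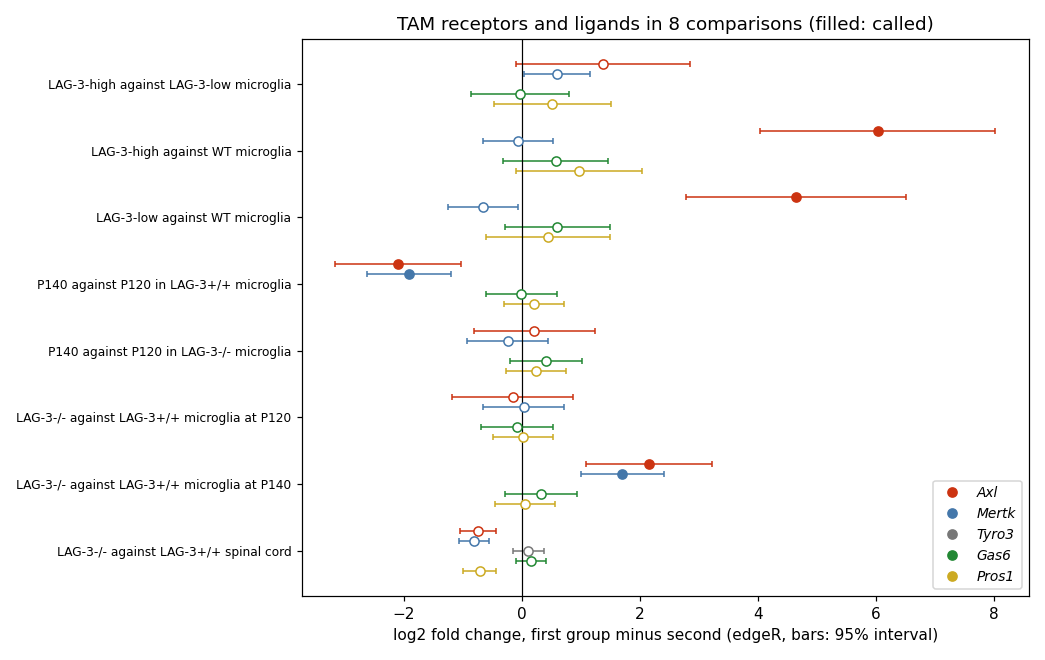
Log2 fold changes of the TAM genes with their 95% intervals in 8 comparisons, with filled points for called genes. In microglia *Axl* is called in 4 comparisons and *Mertk* in 2, while no interval of *Gas6* or *Pros1* belongs to a called gene.

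In whole spinal cord at P140 the direction of *Axl* and *Mertk* between the genotypes was opposite to that in sorted microglia, and *Pros1* fell with them. *Axl* had 252, 204 and 249 CPM in LAG-3+/+ and 151, 118 and 152 CPM in LAG-3-/- cord. *Mertk* had 39.9, 32.0 and 37.1 CPM in LAG-3+/+ and 21.5, 19.5 and 21.1 CPM in LAG-3-/- cord. *Pros1* had 103, 83.9 and 97.4 CPM in LAG-3+/+ and 67.5, 51.7 and 54.1 CPM in LAG-3-/- cord. All 3 genes were lower in every LAG-3-/- library. The log2 fold changes were -0.74 for *Axl* (SE 0.14, edgeR adjusted p = 0.0018), -0.82 for *Mertk* (edgeR adjusted p = 0.00056) and -0.71 for *Pros1* (edgeR adjusted p = 0.0015). They passed an adjusted p of 0.1 but not the minimum log2 fold change of 1, so that 0 of 5 members were called, 3 had an unadjusted p under 0.05, and DESeq2 called 0.

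*Tyro3* and *Gas6* did not fall in LAG-3-/- cord. *Tyro3* had 74.2, 93.8 and 77.9 CPM in LAG-3+/+ and 89.6, 79.8 and 95.7 CPM in LAG-3-/- cord, a change of 0.11 on the log2 scale (edgeR adjusted p = 0.503). *Gas6* had 152, 173 and 165 against 194, 160 and 191 CPM, a change of 0.16 on the log2 scale (edgeR adjusted p = 0.320). The genotypes overlapped for both. The log2 ratio of *Gas6* to *Pros1* was 0.87 higher in LAG-3-/- cord with no overlap (exact permutation p = 0.1, the smallest possible). *Axl* formed 56.1% ± 1.67 of the TAM receptor level per kb of the longest transcript in LAG-3-/- against 66.4% ± 3.95 in LAG-3+/+ cord, *Tyro3* 35.7% against 23.5%, and *Pros1* 24.4% ± 1.92 against 37.1% ± 3.87 of the ligand level.

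Many genes changed in the cord comparison. Whatever the fold, 23.1% of the 17702 genes tested had an adjusted p under 0.1 and were higher and 23.9% were lower, and 26.1% had every LAG-3-/- library below every LAG-3+/+ library. With the minimum fold, 4.37% were called higher and 3.15% lower, that is 773 and 558 genes, against 485 and 830 without TMM, where the median of all genes was -0.13, and 361 and 504 after the length and GC correction. The cord genotypes differed in several measures that moved with these genes. Mitochondrial counts were 4.60% to 6.78% in LAG-3+/+ and 7.99% to 14.8% in LAG-3-/- libraries. Deviations of log2 level from a gene's mean over the cord libraries correlated with transcript length at 0.29 to 0.39 against -0.41 to -0.22. Opposite signs are in part built into this measure, as the deviations balance out over the libraries. The 9 microglial markers summed to 1202 to 1514 CPM in LAG-3+/+ and 875 to 1183 CPM in LAG-3-/- cord, and 4 of the 9 were lower at an adjusted p under 0.1. Astrocyte markers summed to 12945 to 14787 against 7582 to 12100 CPM and oligodendrocyte markers to 16796 to 18330 against 23780 to 33225 CPM. Monocyte markers summed to 174 to 226 against 99.7 to 116 CPM, with 2 of the 3 tested lower at an adjusted p under 0.1, and oligodendrocyte precursor markers to 387 to 417 against 216 to 251 CPM. The part of these cell types in the lower *Axl*, *Mertk* and *Pros1* was not tested. With the length and GC correction the log2 fold changes were -0.79 for *Axl* (edgeR adjusted p = 0.00224), -0.73 for *Mertk* (edgeR adjusted p = 0.0015) and -0.68 for *Pros1* (edgeR adjusted p = 0.00278). The cord and microglia tables were normalized separately, and the opposite directions were not tested against each other.

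**Figure D5:**
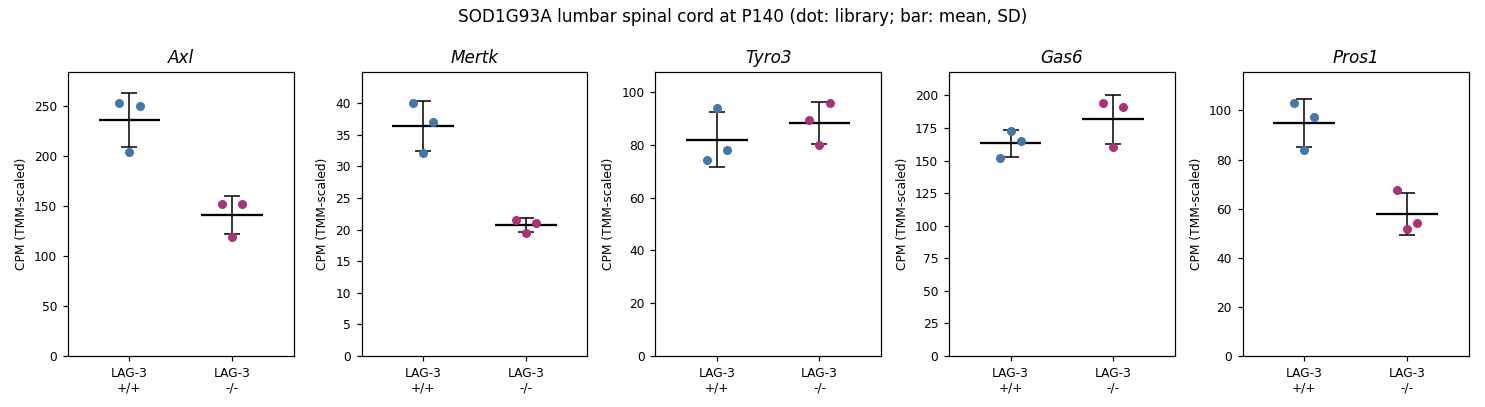
Levels in CPM of all 5 TAM genes in P140 lumbar spinal cord of SOD1G93A mice with the LAG-3+/+ or the LAG-3-/- genotype (n = 3 each), with 1 point per library and the group mean and SD. *Axl*, *Mertk* and *Pros1* do not overlap between the genotypes, while *Tyro3* and *Gas6* do.

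Around the TAM genes, 71 genes of 7 lists were followed: other phosphatidylserine receptors and bridging proteins, engulfment machinery, phosphatidylserine exposure, the vitamin K cycle, proteases and nuclear receptors that act on TAM genes, TAM signaling, and other reported TAM ligands. Of the 58 tested in sorted microglia, 6 were called higher (10.3%) and 2 lower (3.45%) in the LAG-3-high fraction relative to the LAG-3-low one, against 0.818% and 2.67% of all genes, with a median log2 fold change of 0.11 against -0.02 over all genes. The rises included C1q subunits, which opsonize apoptotic cells, and the lipid receptor Trem2. *C1qb* had 10619 ± 817 against 4623 ± 488 CPM (log2 fold change 1.20, edgeR adjusted p = 0.00247) and *Trem2* 2000.2 ± 89.8 against 892 ± 129 CPM (log2 fold change 1.17, edgeR adjusted p = 0.00293). The cholesterol exporter *Abca1* rose by 1.11 and the nuclear receptor partner *Rxra* by 1.91. The Rac GTPase of blood cells *Rac2* fell, with a log2 fold change of -1.75. *Vav3*, a guanine nucleotide exchange factor, was called lower, with 0 counts in all 5 LAG-3-high libraries, which allows up to 0.213 CPM, against 11.8 ± 8.92 CPM in LAG-3-low libraries. Of the list of other phosphatidylserine receptors and bridging proteins, 4 of 15 were called higher and 0 lower. Neutrophil markers summed to 22825 to 66376 CPM in LAG-3-low against 3.48 to 9.67 CPM in LAG-3-high libraries. The part of such cells in these calls and shares was not tested.

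Against WT microglia, 11 of these 58 genes in the LAG-3-high fraction were called higher and 5 lower, as were 9 and 5 in the LAG-3-low fraction. Those are 19.0% and 8.62%, against 12.1% and 14.9% of all genes, and 15.5% and 8.62%, against 10.9% and 11% of all genes. *Lgals3*, which encodes galectin-3, a reported Mertk ligand, rose in both, from 71.0 ± 31.9 CPM in WT to 528 ± 159 CPM in LAG-3-low (log2 fold change 2.90) and 650 ± 110 CPM in LAG-3-high (log2 fold change 3.20, edgeR adjusted p = 3.58e-05). *Ifnar1*, the type I interferon receptor subunit with which TAM receptors signal, rose by 1.47 in the LAG-3-low and by 1.85 in the LAG-3-high fraction. *Adam17*, a protease that sheds Mertk, rose by 1.30 in LAG-3-high microglia. *Itgb5*, an integrin subunit that recognizes the bridging protein Mfge8, fell in both fractions, to 117 ± 12.7 and 225 ± 49.8 CPM from 614 ± 243 CPM in WT (log2 fold changes -2.40 and -1.45).

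Between P120 and P140 in LAG-3+/+ microglia, 11 of the 57 listed genes with a test rose (19.3%) and 21 fell (36.8%), against 11.9% and 15.5% of all genes, with a median log2 fold change of -0.36 against -0.22 over all genes. Of 14 genes of the engulfment machinery 9 fell and 2 rose. *Plcg2*, a phospholipase downstream of Mertk and Trem2, fell by 2.12 (from 154 ± 17.1 to 35.4 ± 8.98 CPM, log2 fold change -2.12, edgeR adjusted p = 0.00497). The GTPase *Rac1* fell from 463 ± 13.8 to 29.5 ± 11.2 CPM (log2 fold change -3.97) and its activator *Elmo1* had a log2 fold change of -1.46. The integrin subunits *Itgav* and *Itgb5* (log2 fold changes -2.01 and -2.61), the engulfment receptor *Lrp1* (-1.49) and the scramblase *Ano6* (-2.74) fell too. So did both proteases that cleave TAM receptors, *Adam10* (-2.24) and *Adam17* (-1.62), and 3 of 7 TAM signaling genes, *Stat3* (-2.38), *Socs3* (-1.91) and *Ifnar1* (-1.60). *Lgals3* rose by 1.94 and *Vkorc1*, the vitamin K reductase, by 1.22. In LAG-3-/- microglia 0 of the 57 genes were called with age, where 0% of all genes were called in either direction.

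At P140, 14 of the same 57 genes rose (24.6%) and 0 fell in LAG-3-/- relative to LAG-3+/+ microglia, against 7.22% and 3% of all genes. Over all genes the calls went from 1908 to 0 with only the 2 groups fitted, to 95 without LAG-3-/- replicate 2 and to 151 without LAG-3-/- replicate 3. They included *Plcg2* (log2 fold change 1.84, edgeR adjusted p = 0.0172), *Crk* (1.66), *Rac1* (2.91), *Adam17* (1.73), *Adam10* (1.76), *Stat3* (1.93), *Ifnar1* (1.47), *Itgav* (1.33), *Lrp1* (0.97) and *Ano6* (2.13). All of these except *Crk* are named above as lower with age, and both comparisons share the P140 LAG-3+/+ libraries. *Rac1* overlapped between the genotypes, at 30.4 to 397 CPM in LAG-3-/- against 17.1 to 38.8 CPM in LAG-3+/+ libraries. At P120 0 were called between the genotypes, where 0% of all genes were called higher and 0.0107% lower. *Itgb5* was the 1 of 57 (1.75%) called in the genotype-by-stage interaction, against 0.161% of all genes called higher and 0.0107% lower. In spinal cord, of 65 such genes, 0 rose and 2 (3.08%) fell in LAG-3-/- mice, close to the 3.15% of all genes called lower. These were *Abca1*, at 77.5 ± 22.2 against 257 ± 33.6 CPM (log2 fold change -1.73, edgeR adjusted p = 0.000477), and the scramblase *Xkr4*, at 3.31 ± 0.926 against 13.6 ± 1.29 CPM (log2 fold change -2.03).

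Genes whose pattern was most like that of each member were ranked by the lower of its Pearson r over the 14 sorted and the 12 stage libraries among 8354 genes, as a description of libraries that share groups and depth. *Axl* was matched most closely by the class I myosin gene *Myo1e* (r = 0.99 and 0.96), by the syndecan gene *Sdc3* (0.96 and 0.95), and by *Mical1*, *Slc36a4* and *Sf3b2*. For *Mertk* they included *Hs1bp3* (0.85 and 0.82), *Ubash3b*, *Psme2b* and *Pnrc1*. For *Gas6* they were *Arhgdia* (0.83 and 0.79), *Nxt2*, *Rnf185*, *Zdhhc24* and *Aig1*. *Pros1* was most like *Cyth4* (0.91 and 0.94), followed by *Tm9sf2*, *Haus2*, *Aagab* and *Exosc10*. No gene was among the closest 5 of more than 1 member.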

How the data were processed

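RNA-seq was measured in sorted microglia and in lumbar spinal cord. The authors deposited estimated counts per Ensembl gene for each of 3 tables, made from reads trimmed with Trim Galore 0.6.7, quantified with Salmon 1.9.0 on GRCm39 and summarized with tximport in R 4.2.1, per the labels. The annotation release is not given in the sources used here. The study's methods give a SMART-seq kit for the microglia and another, directional kit for the cord, whereas the labels name the SMART-seq kit for all libraries. The estimated counts were rounded to whole numbers, and symbols, positions and transcript lengths were taken from GENCODE vM39.

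Each table was fitted over all its groups in edgeR 4.0.16 (R 4.3.3) by the quasi-likelihood F-test with robust estimation, after TMM scaling and filterByExpr (min.count 10, min.total.count 15), and p was adjusted by Benjamini-Hochberg over all genes tested. The threshold for a call was 0.1 on the adjusted p, joined by a minimum of 1 on the absolute log2 scale for sorted microglia and cord but not for the stage table. CPM are TMM-scaled. Log2 ratios were taken between counts, with 0.5 added to each count, and compared by two-sided exact permutation tests over libraries. Alternatives were DESeq2 1.42.0, RLE size factors, no TMM, other filters and thresholds, correction for length and GC content of the transcripts (splines with 5 degrees of freedom), the listed sex, a replicate block, only the groups compared, and each library left out. The length and GC correction was fitted with an intercept for each library, so it also rescaled the libraries. Its effect was not separated from that rescaling. The code was tested on simulated data. A limit for a count of 0 is 3 counts.

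The named genes are the 5 members, *Lag3*, up to 3 called genes per pathway list and comparison by smallest adjusted p, and the 5 genes most like each member among genes with a mean of at least 10 CPM. The members and the lists were chosen with earlier results of these data known. The sources used here do not state that same-numbered libraries of different groups share an animal, so replicate numbers were not treated as pairs. Libraries of one group all differed by more than sampling noise. No sequence is printed, and some genes that the rule names are not reported here.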

Additional observations from a re-analysis of the deposited data

Results flagged for a closer look

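Among the genes around the TAM family, the change of *Itgb5* with age differed between the genotypes. The genotype-by-stage interaction was 3.78 on the log2 scale (SE 0.63, edgeR adjusted p = 0.0908). This call was lost, with 0 genes called over the whole table, with the replicate block (also with the length and GC correction), with the listed sex as covariate, and without any one of the P120 LAG-3+/+ replicates 1, 2 and 3, the P120 LAG-3-/- replicates 2 and 3 and the P140 LAG-3-/- replicates 2 and 3. *Itgb5* had 1719 ± 673 CPM at P120 and 281 ± 67.5 CPM at P140 in LAG-3+/+ microglia, and 195 ± 44.4 CPM at P120 and 436 ± 291 CPM at P140 in LAG-3-/- microglia (SD, n = 3 each). Of 18 sets of member levels and ratios in groups of 4 or 5 libraries, 0 had a library far from the others by Dixon's rule, where chance gives about 1 in 20.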

How the results depend on the processing

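In microglia, the falls of *Axl* and *Mertk* with age in LAG-3+/+ mice and the rise of *Axl* over WT in both LAG-3 fractions kept their direction and their call in every setting run. The calls that changed were these, and the cause was not tested except where fewer groups or libraries entered the fit. Between the LAG-3 fractions 1 member, *Axl*, was called with only the 2 groups fitted and with WT replicates 1 and 4 left out, a setting added after the data were seen, and 0 to 1 with single libraries left out. In LAG-3-high against WT microglia 1 to 2 members were called with single libraries left out. In LAG-3-low against WT 2 were called with the length and GC correction, with or without the replicate block. Between the genotypes at P140, 0 were called with only the 2 groups or with the replicate block and the length and GC correction, and 0 to 2 with single libraries left out. The interaction was called for 2 members by DESeq2, for 1 without a filter on low counts, and for 0 to 2 with single libraries left out. In cord 3 passed without a minimum fold change.

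Values near 0 changed sign. Without TMM, *Gas6* between genotypes at P120 was 0.027, *Pros1* with age -0.26 in LAG-3+/+ and -0.055 in LAG-3-/- microglia, and cord *Tyro3* -0.017. With DESeq2 and with RLE size factors, *Gas6* with age in LAG-3+/+ was 0.10 in each, *Pros1* between genotypes at P140 was -0.019 and -0.023 and its interaction -0.059 and -0.063. With only the 2 groups, *Gas6* with age in LAG-3+/+ was 0.0057. Without the filter, *Mertk* in LAG-3-high against WT was 0.082. The length and GC correction gave *Gas6* 0.056 between genotypes at P120, -0.14 at P140, 0.014 between LAG-3 fractions, -0.37 in LAG-3-high and -0.38 in LAG-3-low against WT, 0.61 with age in LAG-3+/+ and -0.20 for the interaction, and *Pros1* -0.23 between genotypes at P140, -0.064 in LAG-3-low against WT and -0.36 for the interaction. With WT replicates 1 and 4 left out, *Gas6* was -0.081 in LAG-3-high and -0.014 in LAG-3-low against WT, *Pros1* -0.20 in LAG-3-low against WT, and the *Gas6* to *Pros1* ratio differed from WT by -0.37 in LAG-3-high (exact permutation p = 0.0952) and 0.16 in LAG-3-low microglia.

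With single libraries left out, log2 fold changes that changed sign ranged, at P120 between genotypes, from -0.60 to 0.055 for *Axl*, -0.051 to 0.092 for *Mertk*, -0.23 to 0.10 for *Gas6* and -0.046 to 0.080 for *Pros1*. With age they ranged from -0.31 to 0.66 for *Axl* and -0.50 to 0.078 for *Mertk* in LAG-3-/-, and from -0.23 to 0.097 for *Gas6* in LAG-3+/+ microglia. For *Pros1* they ranged from -0.19 to 0.20 between genotypes at P140 and from -0.20 to 0.18 for the interaction, for *Gas6* between LAG-3 fractions from -0.13 to 0.12, and for *Mertk* in LAG-3-high against WT from -0.30 to 0.27. Differences of the *Axl* to *Mertk* ratio ranged from -0.60 to 0.054 between genotypes at P120 and from -0.38 to 0.071 with age in LAG-3+/+. Those of the *Gas6* to *Pros1* ratio ranged from -0.88 to -0.26 in LAG-3-high against WT, -0.34 to 0.27 in LAG-3-low against WT, -0.29 to 0.17 between genotypes at P120, -0.034 to 0.44 at P140, -0.38 to 0.090 with age in LAG-3+/+ and -0.11 to 0.35 with age in LAG-3-/- microglia.

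The sources used here do not say whether same-numbered libraries of different groups share an animal. Same-numbered microglia libraries had correlations of deviations between -0.12 and 0.067, which cannot decide it. Between the LAG-3 fractions the mean was 0.032 for equal and -0.008 for other numbers. With the replicate block alone no call of a member changed, *Gas6* between LAG-3 fractions was 0.021, and paired exact sign-flip tests of the ratios gave differences of *Axl* to *Mertk* of 0.78 between LAG-3 fractions (p = 0.0625), 7.49 for LAG-3-high (p = 0.125) and 6.74 for LAG-3-low (p = 0.125) against WT, and of *Gas6* to *Pros1* of -0.53 between LAG-3 fractions (p = 0.125) and -0.71 for LAG-3-high against WT (p = 0.25). The replicate block with the length and GC correction gave *Gas6* 0.045 between genotypes at P120, -0.14 at P140, -0.00043 in cord, 0.051 between LAG-3 fractions, -0.41 in LAG-3-high and -0.46 in LAG-3-low against WT, 0.61 with age in LAG-3+/+ and -0.19 for the interaction, and *Pros1* -0.25 between genotypes at P140 and -0.36 for the interaction.

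Over these settings the number of genes called ranged from 370 to 1450 between LAG-3 fractions (576 as reported), 2663 to 6082 in LAG-3-high against WT (4464), 1721 to 5890 in LAG-3-low against WT (3614), 3218 to 6989 with age in LAG-3+/+ (5118), 0 to 464 with age in LAG-3-/- (0), 1 to 162 between genotypes at P120 (2), 0 to 4368 at P140 (1908), 0 to 1713 for the interaction (32) and 865 to 1808 in cord (1331). These ranges leave out the setting without a minimum fold change for sorted microglia and cord. Depth limits *Tyro3* in microglia, bounded by its count of 0, and *Axl* in WT replicate 4, at 11 counts.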
